A study of Mus musculus with 9 samples.

Results

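The Integrator subunits Ints1 to Ints10 were followed at the transcript level in N2A cells, a mouse neuroblastoma line, after siRNA depletion of EXOSC3 or DDX1. The members were taken by gene symbol, with earlier results of these data known. All 10 were found among the 24318 genes of each deposited table, and all 10 passed the filter on low values in both comparisons.

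Integrator is a large nuclear complex that binds RNA polymerase II. It cleaves nascent RNA, first described at the ends of small nuclear RNA (snRNA) genes and then at promoter-proximal pause sites and enhancers, and it carries a protein phosphatase that removes phosphates from the polymerase and its elongation factors. The RNA it releases is a substrate of the RNA exosome, the 3′ to 5′ ribonuclease complex of which EXOSC3 is a cap subunit. DDX1 is a DEAD-box RNA helicase.

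The study compared 3 conditions of N2A cells with 3 libraries each, 9 in all. The control cells received a scramble siRNA (siScramble, wild type in the labels), the others an siRNA against Exosc3 (siEXOSC3) or Ddx1 (siDDX1), and the labels name no further treatment in any group. The question was which transcripts change when either protein is lost. Each condition rests on a single cell line and on a transient, partial knockdown, and the replicates came from plates seeded separately.

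Total RNA was depleted of ribosomal RNA and sequenced from libraries that do not keep the strand, so where genes on opposite strands overlap, their reads are mixed. The values are FPKM, fragments normalized to transcript length and library size, in 2 tables, 1 for each knockdown with the same 3 scramble libraries. For the 10 subunits, the scramble values of the siEXOSC3 table exceeded those of the siDDX1 table by a factor of 1.00782 to 1.01188, constant within a library, so each knockdown was compared with scramble in its own table only. Differences were tested on log2(FPKM + 1) with limma over all genes that averaged 1 FPKM or more. P-values were adjusted by Benjamini-Hochberg, and a gene was said to fall or rise at an adjusted p under 0.05. Fold changes on this scale understate changes of low genes. The 2 comparisons share their scramble libraries, so their results are not independent, and the difference between the knockdowns was not tested.

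The targeted transcripts matched the labels. Exosc3 stood at 15.5% of scramble in siEXOSC3 and 97.3% in siDDX1, and Ddx1 at 24.4% in siDDX1 and 100.5% in siEXOSC3. The FPKM tables do not hold the number of reads of each library and the study states only a target for it, so the depth reached is unknown. The depth relative to scramble replicate 1 was estimated from the most frequent ratio among genes with very low values, at which 19.1% to 23.0% of those genes lay. It was 0.922 and 1.11 for scramble replicates 2 and 3, 0.827 to 0.979 in siEXOSC3 and 0.975 to 1.20 in siDDX1. Of 13 neuroblast markers, 10 passed the filter, 7 rose in siEXOSC3 and none fell. Their summed level was 404 to 452 FPKM in scramble and 572 to 608 FPKM in siEXOSC3, against 401 to 447 FPKM in scramble and 375 to 429 FPKM in siDDX1, where no marker passed the test. Of 11 markers of other cell types, the endothelial adhesion gene Pecam1 alone passed the filter and rose in siEXOSC3. Their summed level was 4.86 to 6.51 FPKM in scramble and 6.89 to 10.2 FPKM in siEXOSC3, and 4.82 to 6.46 FPKM in scramble and 5.94 to 6.77 FPKM in siDDX1. These sums were carried by Pecam1, which averaged 4.13 FPKM in scramble and 7.28 FPKM in siEXOSC3, while the other endothelial marker, Cdh5, averaged 0.025 and 0.018 FPKM. Of the astrocyte markers, Aqp4 was listed at 0 in every library, Gfap averaged 0.038 FPKM in scramble, 0.087 in siEXOSC3 and 0.048 in siDDX1, and Aldh1l1 averaged 0.435, 0.224 and 0.186 FPKM. The macrophage marker Cd68 averaged 1.18 FPKM in scramble, 0.645 in siEXOSC3 and 0.669 in siDDX1. Of the other microglia and leukocyte markers, Aif1 averaged 0, 0.173 and 0.053 FPKM, and Ptprc 0, 0 and 0.003 FPKM. Each of these values above 0 came from a single library. Alb (hepatocytes) and Krt5 (basal epithelium) were listed at 0 in every library. The part of these markers in the results was not tested, and fewer cells of a type cannot be told apart from less RNA per cell.

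In siEXOSC3, 6 of the 10 subunits fell (Ints2, Ints3, Ints4, Ints6, Ints7 and Ints10) and none rose, against 15.7% of all 11242 tested genes that fell and 16.7% that rose. The same 6 had all knockdown libraries below all scramble libraries, as did 25.9% of tested genes, and no subunit lay above, as did 23.8%. The fold changes were negative in 9 of 10 members with a median of -0.27, beside 51.9% negative and a median of -0.014 over all tested genes, and 7 members had an unadjusted p under 0.05, as did 45.4% of tested genes. In siDDX1, 2 of 10 subunits fell (Ints3 and Ints8) and none rose, where 5.03% of all 11104 tested genes fell and 5.61% rose. There, 6 subunits (Ints2, Ints3, Ints4, Ints5, Ints6 and Ints8) lay below scramble in every library, as did 17.8% of tested genes, and none lay above, as did 17%. The median was -0.15 with 9 of 10 negative, beside a median of -0.00059 and 50.1% negative over all tested genes, and 5 members had an unadjusted p under 0.05, as did 30.1% of tested genes.

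The mean of a member was at least 71.0% of scramble in each comparison, and several calls depended on a single library. With each library left out in turn, 3 to 6 members fell in siEXOSC3 (3 when scramble replicate 1, scramble replicate 3 or siEXOSC3 replicate 1 was left out), and the calls of Ints3, Ints4 and Ints7 were present in all 6 of these fits. In the fits with 3 members, the calls over all genes went from 3644 to 1607, 1988 and 2048. In siDDX1, 0 to 4 members fell, with 0 when scramble replicate 1 or 3 or siDDX1 replicate 1 or 2 was left out and 1 without scramble replicate 2. Without siDDX1 replicate 3, 4 members fell (Ints3, Ints5, Ints6 and Ints8) and 1 rose (Ints9), in a fit where the calls over all genes went from 1182 to 3527. Those calls also went below 1182 with another library left out. With 3 libraries against 3, the exact permutation test cannot go below 0.1.

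**Figure D1:**
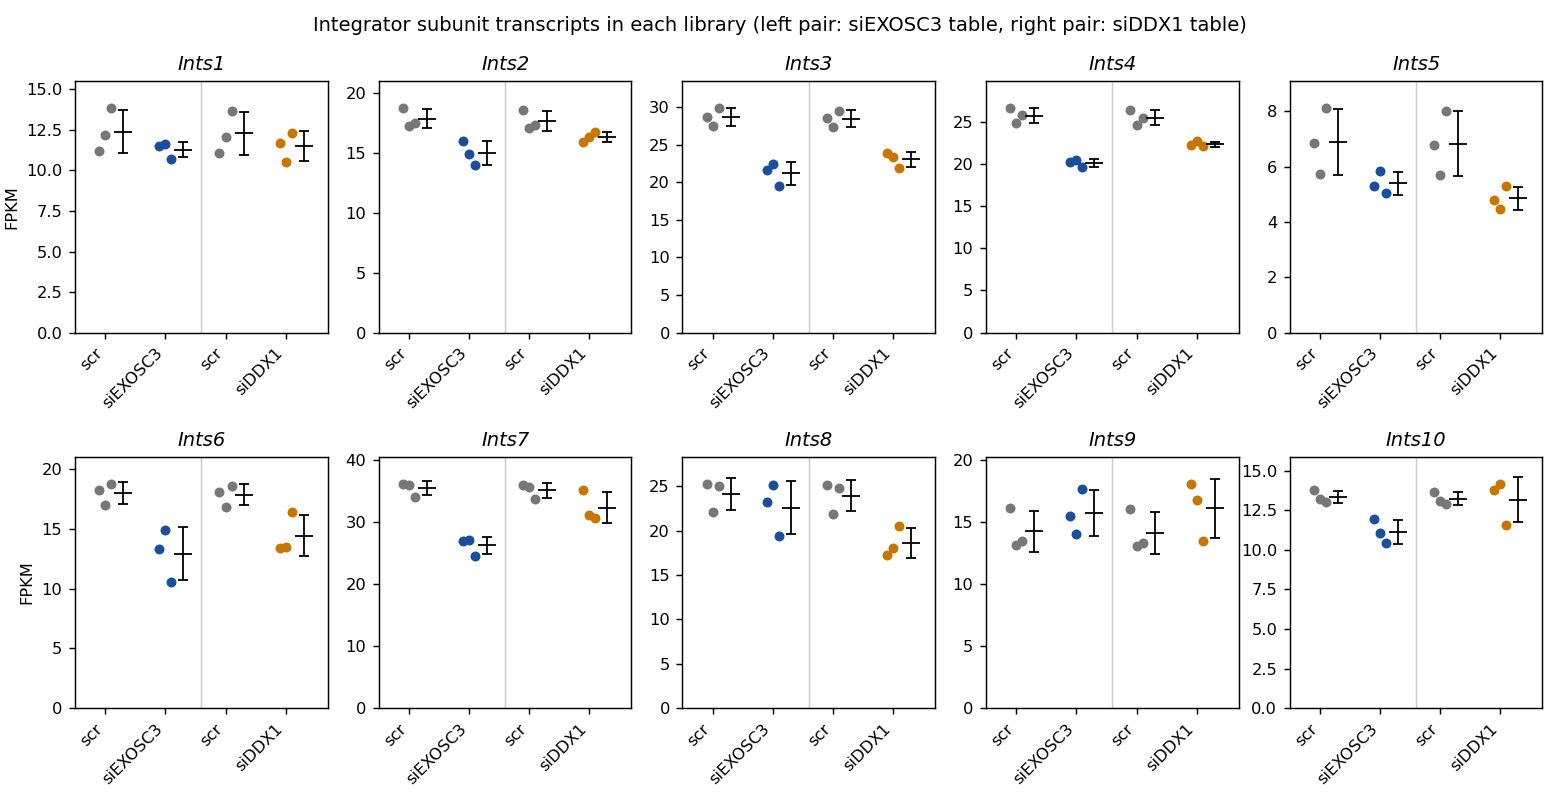
FPKM of the 10 subunits in each library, with scramble in grey (scr), siEXOSC3 in blue and siDDX1 in orange; points are libraries, and bars show the mean and SD (n = 3). The left pair in each panel is from the siEXOSC3 table and the right pair from the siDDX1 table. The siEXOSC3 points of Ints3, Ints4, Ints6 and Ints7 sit below all their scramble points, while those of Ints9 overlap them.

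In scramble cells the 10 subunits were not equally abundant per length. Ints7 was highest at 35.5 ± 1.15 FPKM (SD, n = 3, siEXOSC3 table), followed by Ints3 at 28.7 ± 1.19, Ints4 at 25.7 ± 0.908 and Ints8 at 24.1 ± 1.79 FPKM. Then came Ints6 at 18.0 ± 0.912, Ints2 at 17.8 ± 0.800, Ints9 at 14.3 ± 1.66, Ints10 at 13.3 ± 0.396 and Ints1 at 12.4 ± 1.35 FPKM. Ints5 was lowest at 6.90 ± 1.20 FPKM. The order was the same in both tables, and the neighbours Ints4 and Ints8, Ints6 and Ints2, Ints9 and Ints10, and Ints10 and Ints1 had overlapping ranges. Among all tested genes these levels lay between the 29.7th percentile (Ints5) and the 76.8th (Ints7). Summed over the 10 members, scramble libraries held 202, 189 and 199.6 FPKM and siEXOSC3 libraries 166, 168 and 151 FPKM, which is 82.1% ± 4.51 of scramble (SD, n = 3). In the siDDX1 table the scramble sums were 200.2, 187 and 197 FPKM and the siDDX1 sums 176, 171 and 171 FPKM, 88.6% ± 1.60 of scramble. No knockdown library reached the lowest scramble sum in either table. In the siEXOSC3 cells Ints8 took the second place by mean after Ints7, and in the siDDX1 cells the first 4 places were held by the same genes in the same order as in scramble.

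The backbone of the complex is built around Ints1, Ints2 and Ints7, of which Ints2 and Ints7 fell in siEXOSC3 and none in siDDX1. Ints1, the large scaffold protein, is encoded on chr5:140227236-140251632 (minus strand, NCBIM37, the mm9 sequence) in 47 exon blocks. It read 11.2, 12.2 and 13.9 FPKM in scramble and 11.5, 11.6 and 10.7 FPKM in siEXOSC3. The groups overlapped, and the highest value was scramble replicate 3. The log2 fold change was -0.12 (SE 0.0884) with an adjusted p of 0.315 (limma), at 91.0% ± 3.91 of scramble. In siDDX1, Ints1 read 11.7, 10.5 and 12.3 FPKM beside 11.1, 12.1 and 13.7 FPKM in scramble, again with overlap, and the log2 fold change was -0.08 (95% CI -0.30 to 0.13, limma adjusted p = 0.583).

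Ints2, the partner of Ints1 in the backbone, lies on chr11:86024183-86071077 (minus strand) with 24 exon blocks, of which 512 bases are shared with the opposite-strand transcript 4632419I22Rik. It read 18.7, 17.2 and 17.5 FPKM in scramble and 16.0, 14.9 and 14.0 FPKM in siEXOSC3. All knockdown libraries were below all scramble libraries, at 84.1% ± 5.62 of scramble. The log2 fold change was -0.24 (SE 0.0745) with a limma adjusted p of 0.0410, just under the threshold. The call was present in only 1 of 6 fits with a library left out, without siEXOSC3 replicate 2 (limma adjusted p = 0.0472), and was absent when scramble replicate 1 (0.162), 2 (0.0789) or 3 (0.0939) or siEXOSC3 replicate 1 (0.0575) or 3 (0.0782) was omitted. It was also absent with no filter on low FPKM (0.0586), quantile normalization (0.0650), centring on the median (0.0515) or no intensity trend (0.0504), and with the replicate number in the model (0.0750). In siDDX1, Ints2 read 15.9, 16.3 and 16.7 FPKM beside 18.6, 17.1 and 17.3 FPKM in scramble. These groups did not overlap either, but at 92.3% ± 2.33 of scramble the log2 fold change of -0.11 (95% CI -0.26 to 0.04) had a limma adjusted p of 0.287.

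Ints7, the most abundant of the 10 and the third backbone subunit, lies on chr1:193399642-193446551 (plus strand, 20 exon blocks), next to Dtl. It read 36.2, 36.1 and 34.2 FPKM in scramble and 27.0, 27.2 and 24.6 FPKM in siEXOSC3. The groups were separated by a gap wider than the spread within either of them. At 74.1% ± 4.03 of scramble, Ints7 fell by 0.42 on the log2 scale (SE 0.0673, limma adjusted p = 0.00395), among the lowest 6.32% of tested genes. The adjusted p was 0.00203 to 0.0267 over the 6 fits with a library left out. In siDDX1 it read 35.2, 31.1 and 30.8 FPKM beside 36.0, 35.8 and 33.8 FPKM. Replicate 1 lay within the scramble range and the other replicates below it, at 92.0% ± 7.02 of scramble, and the log2 fold change was -0.12 (95% CI -0.28 to 0.04, limma adjusted p = 0.288).

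Ints5 and Ints8 connect the backbone to the phosphatase. Ints5 is the shortest locus, with 2 exon blocks on chr19:8967477-8972380 (plus strand), and the least abundant member. It read 6.85, 5.73 and 8.12 FPKM in scramble and 5.31, 5.86 and 5.04 FPKM in siEXOSC3. The scramble libraries themselves were widely spread, and siEXOSC3 replicate 2 lay above scramble replicate 2. The mean was 78.3% ± 6.02 of scramble, with a log2 fold change of -0.29 (SE 0.119, limma adjusted p = 0.0881) that passed the test only without scramble replicate 2 (0.0433). In siDDX1, Ints5 read 4.79, 4.48 and 5.29 FPKM beside 6.80, 5.68 and 8.02 FPKM. All 3 were below the lowest scramble library. This was the largest difference of any member in siDDX1 by size, 71.0% ± 5.96 of scramble and a log2 fold change of -0.41 (95% CI -0.69 to -0.14), yet the adjusted p was 0.0611 (limma). It passed without scramble replicate 2 (0.0487), without siDDX1 replicate 3 (0.0166) or with the replicate number in the model (0.0238).

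Ints8, which contacts the phosphatase enzyme, overlapped scramble in siEXOSC3 and fell in siDDX1. It lies on chr4:11126305-11181405 (minus strand, 28 exon blocks). It read 25.3, 22.1 and 25.1 FPKM in scramble and 23.2, 25.2 and 19.3 FPKM in siEXOSC3, with overlap. The log2 fold change was -0.10 (95% CI -0.33 to 0.14, limma adjusted p = 0.481), and without siEXOSC3 replicate 3, the lowest library, it was 0.0034. In siDDX1, Ints8 read 17.3, 18.0 and 20.5 FPKM beside 25.1, 21.9 and 24.8 FPKM in scramble. All siDDX1 libraries were below all scramble libraries, at 77.7% ± 6.95 of scramble. Ints8 fell by 0.35 on the log2 scale (SE 0.0843, limma adjusted p = 0.0378). The call was absent without scramble replicate 1 (0.152), 2 (0.0520) or 3 (0.140) and without siDDX1 replicate 1 (0.110) or 2 (0.122), and without siDDX1 replicate 3 the adjusted p was 0.00341. It was also absent with no filter on low FPKM (0.0710) and without the intensity trend (0.0509).

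Ints8 overlaps a neighbouring gene. It shares 609 exonic bases with Ccne2, the cyclin E2 gene of the S-phase entry machinery, on the opposite strand, and 5.41% of its 75-base words are also in Ccne2 transcripts. The other 9 members shared 0.0% of such words with other protein-coding transcripts, the only ones searched, which leaves out noncoding neighbours such as that of Ints2. Ccne2 read 22.7, 22.2 and 24.0 FPKM in scramble and 12.9, 13.4 and 17.3 FPKM in siDDX1, a larger fall than that of Ints8 (-0.63 on the log2 scale, limma adjusted p = 0.0128). That call was absent without scramble replicate 1 (0.0655), scramble replicate 3 (0.0660) or siDDX1 replicate 2 (0.0502). In siEXOSC3, Ccne2 read 23.4, 29.2 and 23.3 FPKM beside 22.9, 22.4 and 24.2 FPKM, and its log2 fold change was 0.12 (limma adjusted p = 0.371). Within nondirectional libraries, the reads of the shared bases cannot be assigned to either gene, and the part of Ccne2 in the Ints8 difference was not tested.

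Ints3 and Ints6 bind each other. Ints6 brings the protein phosphatase to the complex, while Ints3 is also the scaffold of a single-stranded DNA binding complex (SOSS) with Nabp1, Nabp2 and Inip. Both fell in siEXOSC3, and Ints3 also fell in siDDX1. Ints3 lies on chr3:90195310-90237558 (minus strand, 30 exon blocks). It read 28.7, 27.5 and 29.9 FPKM in scramble and 21.7, 22.5 and 19.5 FPKM in siEXOSC3. There was no overlap, and the difference of the means was larger than the spread within either group. Ints3 fell by 0.42 on the log2 scale (SE 0.0743, limma adjusted p = 0.00561), to 74.0% ± 5.34 of scramble, with an adjusted p of 0.00220 to 0.0309 over the 6 fits with a library left out. In siDDX1 it read 23.9, 23.3 and 21.9 FPKM beside 28.5, 27.3 and 29.5 FPKM. All siDDX1 libraries were again below all scramble libraries, at 81.2% ± 3.55. The fall was 0.29 (-0.29, SE 0.0631, limma adjusted p = 0.0271), among the lowest 8.11% of tested genes. That call was absent without scramble replicate 1 (0.113), 2 (0.0613) or 3 (0.115) and without siDDX1 replicate 1 (0.0548) or 2 (0.0867), and present without siDDX1 replicate 3 (0.0132).

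Ints6, on chr14:63295167-63379949 (minus strand, 19 exon blocks, 39 exonic bases shared with the opposite-strand 4931440J10Rik), is the subunit whose transcript the study singled out in these same libraries. The study states that its change was significant, by an analysis other than the limma fit used here. Ints6 read 18.2, 17.0 and 18.8 FPKM in scramble and 13.3, 14.9 and 10.5 FPKM in siEXOSC3. The 3 knockdown libraries were below scramble but spread more widely, at 71.8% ± 12.3 of scramble. The fall of 0.46 on the log2 scale (-0.46, 95% CI -0.73 to -0.20, limma adjusted p = 0.0188) was the largest of the 10 members in siEXOSC3 by size, among the lowest 4.59% of tested genes. Omitting scramble replicate 1 gave an adjusted p of 0.0698, scramble replicate 3 gave 0.0725 and siEXOSC3 replicate 1 gave 0.0515. In siDDX1, Ints6 read 13.4, 13.4 and 16.4 FPKM beside 18.1, 16.8 and 18.5 FPKM. Replicate 3 lay just under the lowest scramble library and the others well below it, at 81.0% ± 9.77. The log2 fold change was -0.29 (95% CI -0.50 to -0.09, limma adjusted p = 0.0738). It passed without siDDX1 replicate 3 (0.00345) or with the replicate number in the model (0.0399).

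Ints4 and Ints9 form the cleavage module with Ints11, the endonuclease. Ints4 fell in siEXOSC3, and Ints9 passed the test in neither knockdown. Ints4 is the scaffold that holds the pair of Ints9 and Ints11, and lies on chr7:104629466-104689907 (plus strand, 23 exon blocks). It read 26.6, 24.8 and 25.7 FPKM in scramble and 20.2, 20.5 and 19.6 FPKM in siEXOSC3. The siEXOSC3 libraries were close to each other, at 78.1% ± 1.80 of scramble. Ints4 fell by 0.34 on the log2 scale (SE 0.0631, limma adjusted p = 0.00648), with an adjusted p of 0.00436 to 0.0410 over the 6 fits with a library left out. In siDDX1 it read 22.3, 22.6 and 22.0 FPKM beside 26.4, 24.6 and 25.4 FPKM, with no overlap. At 87.6% ± 1.19 of scramble the log2 fold change of -0.18 (95% CI -0.32 to -0.05) had a limma adjusted p of 0.0797, and 0.0578 to 0.259 with a library left out.

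Ints9, the inactive paralog and partner of the endonuclease, lies on chr14:65568882-65658663 (plus strand, 18 exon blocks) and was the 1 member with a positive fold change in each comparison. It read 16.2, 13.1 and 13.5 FPKM in scramble and 15.5, 14.0 and 17.7 FPKM in siEXOSC3. The ranges overlapped and scramble replicate 1 was higher than 2 of the siEXOSC3 libraries. The log2 fold change was 0.13 (95% CI -0.11 to 0.38, limma adjusted p = 0.362). In siDDX1, Ints9 read 18.1, 16.8 and 13.5 FPKM beside 16.1, 13.0 and 13.3 FPKM. Replicate 3 lay within the scramble range, and the log2 fold change was 0.17 (95% CI -0.10 to 0.45, limma adjusted p = 0.356). It was 0.29 with an adjusted p of 0.0377 without that library.

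Ints10 belongs to an auxiliary module with Ints13 and Ints14, and lies on chr8:71317828-71353309 (plus strand, 18 exon blocks). It read 13.8, 13.2 and 13.0 FPKM in scramble and 11.9, 11.1 and 10.4 FPKM in siEXOSC3. The scramble libraries were tightly grouped and all siEXOSC3 libraries lay below them, at 83.5% ± 5.66 of scramble. Ints10 fell by 0.24 on the log2 scale (SE 0.0742, limma adjusted p = 0.0381). The call was present without siEXOSC3 replicate 2 (0.0447) and absent without scramble replicate 1 (0.144), 2 (0.0915) or 3 (0.0834) and without siEXOSC3 replicate 1 (0.0547) or 3 (0.0740). It was also absent with no filter on low FPKM (0.0570) and with the replicate number in the model (0.0774). In siDDX1 it read 13.8, 14.2 and 11.5 FPKM beside 13.7, 13.1 and 12.9 FPKM. Replicates 1 and 2 were above all scramble libraries and replicate 3 below, and the log2 fold change was -0.01 (95% CI -0.21 to 0.19, limma adjusted p = 0.956). The sign turned to 0.076 without siDDX1 replicate 3 and to 0.014 without scramble replicate 1.

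**Figure D2:**
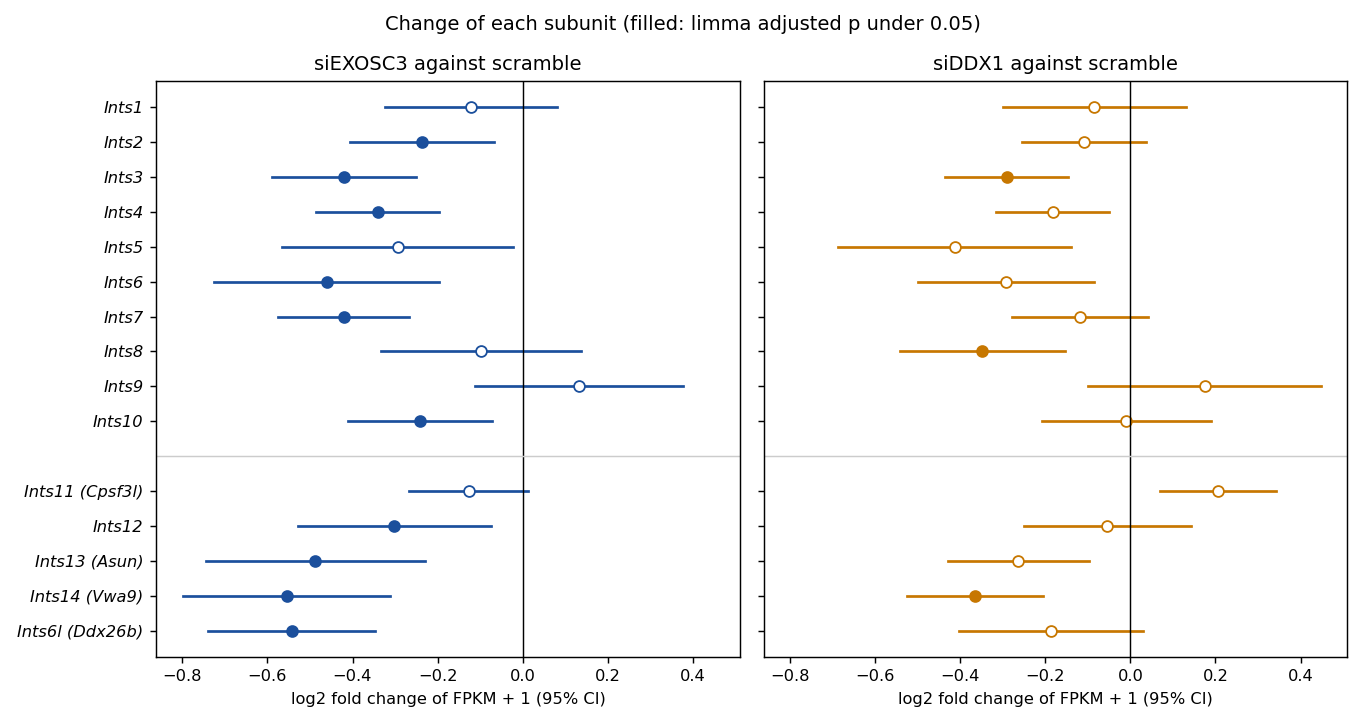
Log2 fold change of FPKM + 1 for Ints1 to Ints10 and, under the line, the other Integrator subunits, with 95% confidence intervals from limma; filled points passed an adjusted p of 0.05. In siEXOSC3 the 6 filled members lie between -0.46 and -0.24, and in siDDX1 the filled members are Ints3 at -0.29 and Ints8 at -0.35.

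**Figure D3:**
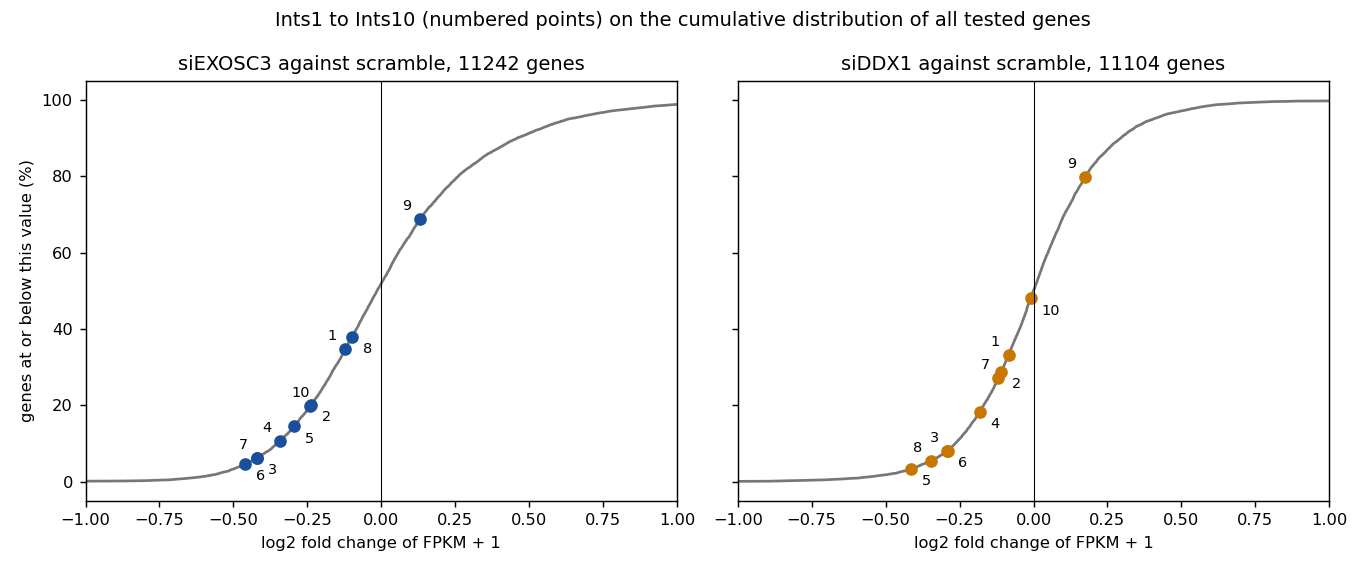
Cumulative share of all tested genes (%) against the log2 fold change, with Ints1 to Ints10 marked by their numbers. In siEXOSC3, 9 of the 10 points lie left of 0 and Ints6 sits lowest at 4.59%, and in siDDX1 Ints5 sits lowest at 3.40% and Ints9 highest at 79.9%.

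**Figure D4:**
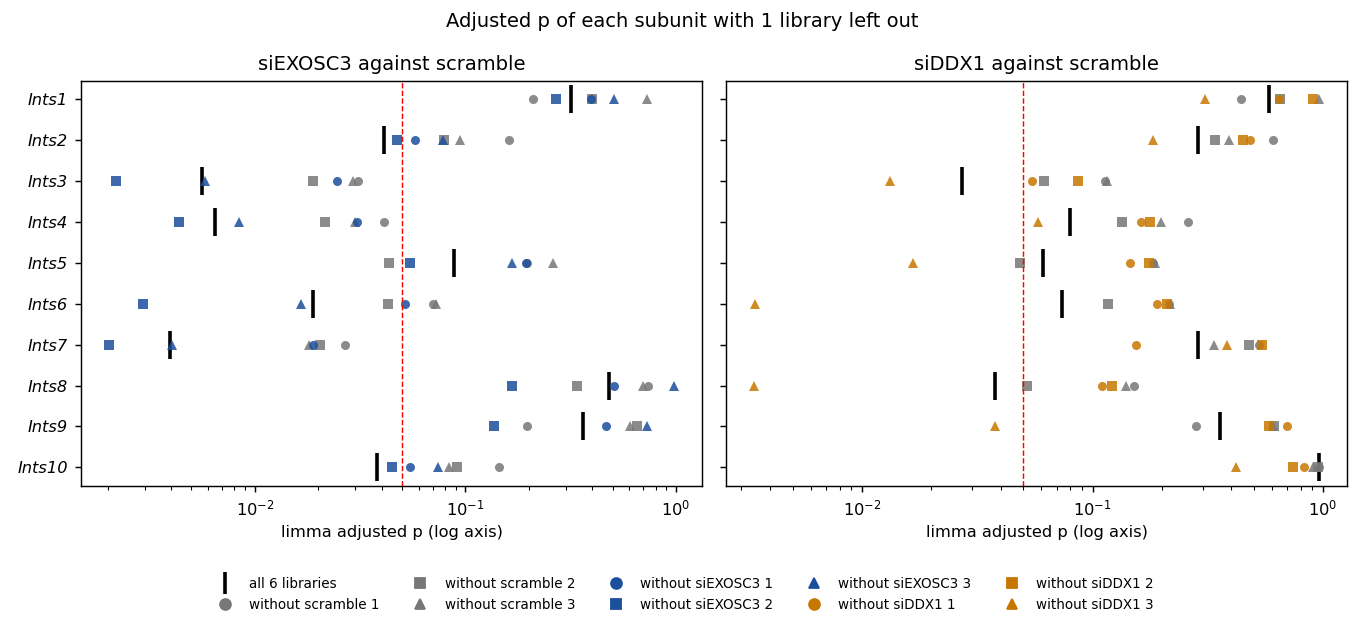
Adjusted p from limma (log axis) for each member with all 6 libraries of a table (black bars) and with each library left out (symbols), with the 0.05 threshold as a dashed line. In siEXOSC3 all symbols of Ints3, Ints4 and Ints7 lie left of the threshold, and in siDDX1 leaving out replicate 3 (orange triangles) puts Ints3, Ints5, Ints6, Ints8 and Ints9 left of it.

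Library by library, the median member lay 0.23, 0.24 and 0.35 below its scramble mean on the log2 scale in siEXOSC3 replicates 1, 2 and 3 (-0.23, -0.24 and -0.35), while the median of all tested genes was -0.0077, -0.0088 and -0.020 there. Replicate 3 was the lowest for Ints1, Ints2, Ints3, Ints4, Ints5, Ints6, Ints7, Ints8 and Ints10. In siDDX1 the corresponding medians were -0.16, -0.19 and -0.18, beside 0.0051, 0.00025 and -0.0020 over all tested genes. Scramble libraries lay between -0.054 and 0.039. In each siEXOSC3 library 9 of 10 members were below their scramble mean, and in siDDX1 the number was 7, 8 and 9. In scramble replicate 2, 9 of 10 members were also below the scramble mean.

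The members differed in how they followed the rest. Over the 6 libraries of the siEXOSC3 table, Ints3 had the highest Pearson correlation with the mean profile of the other 9 members (r = 0.978), and Ints9 the lowest at -0.60. In the siDDX1 table Ints4 was highest at 0.963, Ints1 was at 0.188, Ints10 at -0.00075 and Ints9 at -0.40. These correlations are descriptions over 6 libraries of 2 conditions, and all genes of a library share its depth. Of 11044 other genes tested in both tables, 152 had r above 0.9 with the mean member profile in both. The 5 with the most similar profile were Ptdss1, which makes phosphatidylserine (0.993 and 0.985 in the siEXOSC3 and siDDX1 tables), Vsig10 (0.992 and 0.984), Rhou (0.984 and 0.983), Anapc4, a subunit of the anaphase-promoting complex (0.980 and 0.987), and Tbc1d1, a Rab GTPase-activating protein (0.974 and 0.973). Ptdss1 averaged 42.5 ± 3.38 FPKM (SD, n = 3) in scramble and 34.1 ± 2.24 FPKM in siEXOSC3. In the siDDX1 table it averaged 42.1 ± 3.29 FPKM in scramble and 34.0 ± 1.73 FPKM in siDDX1. Anapc4 averaged 31.7 ± 0.997 FPKM in scramble and 26.0 ± 1.97 FPKM in siEXOSC3, and 31.4 ± 0.950 FPKM in scramble and 27.2 ± 0.809 FPKM in siDDX1.

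The remaining subunits of the complex were looked up by current and older symbols, and 5 of 6 were found (Ints15 was not matched). In siEXOSC3, 4 of these 5 fell and none rose, with all 5 below scramble in every library and a median log2 fold change of -0.49, where 15.7% of all tested genes fell and 25.9% lay below scramble in every library. Ints11, the endonuclease, read 32.0, 30.8 and 30.7 FPKM in scramble and 28.2, 29.4 and 27.8 FPKM in siEXOSC3 (-0.13, limma adjusted p = 0.137). The catalytic subunit was thus at 91.3% of scramble with no overlap of the groups. Ints12, a PHD finger protein that binds Ints1, read 15.3, 13.0 and 12.6 FPKM against 10.7, 12.02 and 9.86 FPKM (-0.30, limma adjusted p = 0.0479). That call was present only without siEXOSC3 replicate 2 (0.0149) and absent in the other 5 fits (0.0701 to 0.179). It was also absent with no filter, quantile normalization, centring on the median or no intensity trend (0.0543 to 0.0902), and with the replicate number in the model (0.0767). Ints13 read 46.1, 45.2 and 44.4 FPKM against 31.9, 38.1 and 26.9 FPKM (-0.49, limma adjusted p = 0.0139, but 0.0561 without scramble replicate 1). Ints14, which pairs with Ints13, read 14.6, 13.3 and 13.8 FPKM against 10.0, 9.97 and 7.59 FPKM (-0.55, limma adjusted p = 0.00732). Ints6l, a paralog of Ints6, read 9.75, 9.94 and 9.80 FPKM against 6.45, 5.78 and 7.14 FPKM (-0.54, limma adjusted p = 0.00382). The last 2 calls were present with any 1 library left out.

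In siDDX1, 1 of the 5 fell and none rose, with a median log2 fold change of -0.19, where 5.03% of all tested genes fell. Ints14 read 10.0, 10.5 and 10.9 FPKM beside 14.5, 13.2 and 13.6 FPKM (-0.37, limma adjusted p = 0.0179). It was the only subunit outside the 10 to pass here, and its call was absent without scramble replicate 1 (0.0979), scramble replicate 3 (0.0747), siDDX1 replicate 1 (0.0586) or siDDX1 replicate 2 (0.0658). Ints11 lay above scramble in every library, with 37.4, 35.6 and 34.3 FPKM beside 31.7, 30.5 and 30.4 FPKM (0.21, limma adjusted p = 0.0606), and passed without siDDX1 replicate 3 (0.0162) or with centring on the median (0.0453). Ints11 shares 697 exonic bases with the neighbouring Pusl1. Ints13 stood at 83.1% of scramble (limma adjusted p = 0.0536, 0.00395 without siDDX1 replicate 3 and 0.0475 with quantile normalization), Ints12 at 95.8% (0.718) and Ints6l at 87.2% (0.223, and 0.0198 without siDDX1 replicate 3).

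Genes that act with the complex were counted from lists. Of the 5 partners in the phosphatase and the SOSS complex, 1 rose in siEXOSC3 and none passed in siDDX1. It was Nabp1, a single-stranded DNA binding protein that pairs with Ints3, at 57.5, 48.5 and 58.7 FPKM in scramble and 79.8, 87.9 and 69.5 FPKM in siEXOSC3 (0.52, limma adjusted p = 0.00895). In siDDX1 it read 48.1, 51.6 and 82.2 FPKM beside 57.1, 48.1 and 58.1 FPKM, with a single high library. Of 9 pausing and elongation factors, 2 rose and 2 fell in siEXOSC3 (median -0.06), and 1 rose and 1 fell in siDDX1 (median 0.09). Over all tested genes 16.7% rose and 15.7% fell in siEXOSC3, and 5.61% and 5.03% in siDDX1, so with so few genes these counts stand near the background. Ccnt1, a cyclin of the elongation kinase P-TEFb, fell in siEXOSC3 (-0.36, limma adjusted p = 0.00730) and in siDDX1 (-0.42, limma adjusted p = 0.0138). The siDDX1 call was absent without scramble replicate 1 (0.0777), scramble replicate 3 (0.0660) or siDDX1 replicate 2 (0.0571). Its alternative Ccnt2 rose in siEXOSC3 (0.33, limma adjusted p = 0.0214), but not without scramble replicate 1, 2 or 3 or siEXOSC3 replicate 1 (0.0528 to 0.0911). Supt4a, a subunit of the pausing and elongation factor DSIF, fell in siEXOSC3 (-0.35, limma adjusted p = 0.00966). Nelfe, a subunit of the pausing factor NELF, was the other gene that rose in siEXOSC3 (0.29, limma adjusted p = 0.0257), but not without scramble replicate 1 (0.111), scramble replicate 2 (0.0847) or siEXOSC3 replicate 1 (0.0926), nor with the replicate number in the model (0.0513). It also rose in siDDX1 (0.37, limma adjusted p = 0.0259), a call present only without siDDX1 replicate 3 (0.0044) among the 6 fits with a library left out and absent with no filter on low FPKM (0.0536).

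Among 11 transcription factors of snRNA genes, 10 were tested, 2 fell in siEXOSC3 (median -0.21) and 1 in siDDX1 (median -0.05), and none rose. These counts of calls too stand near the shares of all tested genes that fell, 15.7% and 5.03%. In siEXOSC3, 5 of the 10 lay below scramble in every library, as did 25.9% of tested genes, and 2 above, as did 23.8%. In siDDX1, 2 lay below and 2 above, beside 17.8% and 17%. Fold changes were negative in 8 of 10 in siEXOSC3 and 7 of 10 in siDDX1, beside 51.9% and 50.1% of tested genes. The 3 calls were of subunits of the snRNA activating complex. Snapc4 read 8.71, 8.90 and 9.01 FPKM in scramble and 6.11, 6.46 and 6.50 FPKM in siEXOSC3 (-0.42, limma adjusted p = 0.00457). Snapc2 stood at 76.2% of scramble in siEXOSC3 (-0.37, limma adjusted p = 0.00738), and Snapc5 at 73.4% in siDDX1 (-0.39, limma adjusted p = 0.0468, 0.111 to 0.164 when any scramble library or siDDX1 replicate 1 was left out, and 0.0535 to 0.0969 with no filter, quantile normalization or centring). Cpsf3 and Cpsf2 are the pre-mRNA 3′ end cleavage paralogs of Ints11 and Ints9. Cpsf2 fell in siEXOSC3 (-0.29, limma adjusted p = 0.0451), a call present only without siEXOSC3 replicate 2 (0.0041) among the fits with a library left out. The call was absent with no filter, quantile normalization, centring or no intensity trend (0.0556 to 0.0797), and with the replicate number in the model (0.0835). Cpsf3 was at 99.6% of scramble (limma adjusted p = 0.951). Neither passed in siDDX1. Of 9 snRNA genes transcribed by RNA polymerase II, the classical substrates, 2 were in the tables (Rnu11 and Rnu12) and both were listed at 0 in every library, so the RNA products of Integrator cleavage could not be compared.

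Promoter sequences from RefSeq (GRCm38.p6, a later build than that of the expression tables) were matched for 6 of the 10 members (Ints1, Ints2, Ints3, Ints4, Ints6 and Ints7). The 250 bases before the annotated start are shown for the 3 members whose fall in siEXOSC3 was present in every fit (Ints3, Ints4 and Ints7) and for Ints1, which passed in neither knockdown. Capitals mark matches, on either strand, to the motifs named below.
Ints3, chr3:90433637-90433886, minus strand: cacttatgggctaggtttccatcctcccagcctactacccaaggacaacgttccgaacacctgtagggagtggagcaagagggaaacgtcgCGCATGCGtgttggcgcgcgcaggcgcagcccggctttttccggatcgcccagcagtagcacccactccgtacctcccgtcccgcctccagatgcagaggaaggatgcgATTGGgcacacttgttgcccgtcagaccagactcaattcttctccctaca
Ints4, chr7:97480706-97480955, plus strand: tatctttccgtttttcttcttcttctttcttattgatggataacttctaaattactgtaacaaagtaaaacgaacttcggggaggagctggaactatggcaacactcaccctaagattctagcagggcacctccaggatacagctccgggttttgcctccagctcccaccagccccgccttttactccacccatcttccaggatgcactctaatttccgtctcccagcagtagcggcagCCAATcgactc
Ints7, chr1:191575386-191575635, plus strand: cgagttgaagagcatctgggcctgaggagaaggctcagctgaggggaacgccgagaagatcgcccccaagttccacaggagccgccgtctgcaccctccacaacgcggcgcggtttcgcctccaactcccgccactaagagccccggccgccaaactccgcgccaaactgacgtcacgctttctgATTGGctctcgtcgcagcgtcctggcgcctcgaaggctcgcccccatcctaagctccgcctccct
Ints1, chr5:139775679-139775928, minus strand: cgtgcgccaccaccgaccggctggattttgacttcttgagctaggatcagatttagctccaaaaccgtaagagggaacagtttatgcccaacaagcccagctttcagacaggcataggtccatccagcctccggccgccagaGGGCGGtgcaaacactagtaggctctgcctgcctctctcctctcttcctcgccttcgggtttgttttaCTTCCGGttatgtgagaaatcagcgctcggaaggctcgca
The motifs searched on both strands were CCAAT (the CCAAT box), GGGCGG (the GC box), TATAAA (the TATA box), CACGTG (the E-box), CCGGAAG (an ETS site), GCATGCG (the core of an NRF1 site) and GATGGCG (part of a YY1 site). No promoter was matched for Ints5, Ints8, Ints9 and Ints10, so Ints1 is the only member among the 6 that did not fall in siEXOSC3. CCAAT was in 5 of the 6 promoters (all but Ints1) and in 33.8% of the 32851 promoters of the table. GGGCGG was in 3 of 6 (Ints1, Ints2 and Ints6) and 32.7% of the table, GCATGCG in 2 of 6 (Ints2 and Ints3) and 3.02%, and CCGGAAG in 1 of 6 (Ints1) and 6.91%. Overlapping matches of GCATGCG on opposite strands are counted as 1 promoter. TATAAA (12.4% of the table), CACGTG (6.02%) and GATGGCG (2.18%) were in none of the 6. The GC content was 59.6% for Ints3, 48.4% for Ints4, 65.2% for Ints7 and 55.2% for Ints1, beside a median of 52.4% over the table. The window of Ints7 also holds part of the annotation of Dtl. These matches are descriptions of the letters in the window, and none was tested against the fold changes.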

How the data were processed

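The members and gene lists were chosen with earlier results of these data known. Per the labels and the study's methods, the authors transfected individual siRNAs with a Lipofectamine reagent, sequenced rRNA-depleted nondirectional libraries, aligned reads to mm9 with TopHat2 2.1.0, used SAMtools and ran Cuffdiff 2.2.1. The deposited values are FPKM per gene and library, and the annotation and library normalization given to Cuffdiff are not given in the sources used here. A count model cannot be applied to FPKM, and no interval from counts is given since the depth is unknown. Columns hold no comparisons of the authors.

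Genes that averaged 1 FPKM or more in the 6 libraries of their table were tested on log2(FPKM + 1) with limma 3.58.1 in R 4.3.3 (lmFit, then eBayes with trend, two-sided, without covariates), with Benjamini-Hochberg adjustment at 0.05 over all tested genes. The script was tested on simulated data. P-values measure the spread between 3 separately seeded plates of 1 line. Alternatives were a pseudocount of 0.1, no filter or a minimum mean of 5 FPKM, median centring, quantile normalization, eBayes without trend, a block for the replicate number, and each library left out. The named genes were the 10 members, the targets, the other Integrator subunits, at most 3 called genes per list and comparison by largest change (Nelfe in siEXOSC3 was added after its value was seen), and the 5 genes with the most similar profile. Ccne2 and the marker genes named were chosen after their values were seen. Positions came from GENCODE on NCBIM37, 75-base words from its transcripts, and promoters from RefSeq. Figures used matplotlib 3.10.9 in Python 3.11.15.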

Additional observations from a re-analysis of the deposited data

How the results depend on the processing

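For the 10 members, 60 fold changes and calls were recomputed in siEXOSC3 with a library left out: 45 kept their direction and their side of the threshold, 13 lost a call, 1 gained one and 1 turned in sign. Under the other settings the numbers were 63, 7, 0 and 0 of 70. In siDDX1 they were 44, 10, 4 and 2 of 60, and 64, 2, 2 and 2 of 70. The count of members past the threshold ran from 3 to 6 in siEXOSC3, all fallen, and from 0 to 5 in siDDX1 with a library left out (4 fallen and 1 risen without siDDX1 replicate 3), and in siDDX1 it was 1 with no filter on low FPKM and 1 without the intensity trend. The median log2 fold change of the members ran from -0.31 to -0.23 in siEXOSC3 and from -0.18 to -0.15 in siDDX1, and was -0.13 in siDDX1 after centring on the median. Over all genes, the 3644 calls of siEXOSC3 became 1607 to 4886 and the 1182 calls of siDDX1 163 to 3527 with a library left out, and in siDDX1 they became 717 with no filter. Deviations of scramble and knockdown libraries with the same number correlated at 0.0346, -0.31 and -0.126 in siEXOSC3. In siDDX1 they correlated at -0.0121, 0.379 and 0.372. Scramble replicate 2 with siDDX1 replicate 3 gave -0.372, and scramble replicate 3 with siDDX1 replicate 2 gave -0.376. Replicates 2 and 3 of siDDX1 thus followed the scramble library of their own number, and replicate 1 did not. The main fit did not take the numbers as pairs, since they name separately seeded plates of each condition. With the replicate number as a block, 4 members fell in siEXOSC3, where Ints2 (0.0750) and Ints10 (0.0774) were lost, and 4 in siDDX1, where Ints5 (0.0238) and Ints6 (0.0399) were gained, and 2449 and 1893 genes passed in all. Signs turned for Ints8 in siEXOSC3 without siEXOSC3 replicate 3 (0.0034), and for Ints10 in siDDX1 with quantile normalization (0.011), centring (0.016), without scramble replicate 1 (0.014) or without siDDX1 replicate 3 (0.076). Among the other genes they turned for Ddx1 in siEXOSC3 with quantile normalization (-0.0058), without scramble replicate 3 (-0.027) or without siEXOSC3 replicate 2 (-0.045), and in siDDX1 for Ints12 without scramble replicate 1 (0.028), Ccnt2 without scramble replicate 1 (-0.0053) or siDDX1 replicate 2 (-0.023), Supt4a without siDDX1 replicate 1 (-0.030) and Nabp1 without siDDX1 replicate 3 (-0.12). With a library left out, the values ran from -0.062 to 0.076 for Ints10, -0.11 to 0.028 for Ints12, -0.12 to 0.26 for Nabp1, -0.023 to 0.088 for Ccnt2 and -0.030 to 0.23 for Supt4a in siDDX1, and from -0.045 to 0.040 for Ddx1 in siEXOSC3. The causes were not tested. Vsig10 has no value at a mean FPKM of at least 5. Where a library was left out, the group of 2 shared its spread with the group of 3. The unknown depth limits what can be said of the lowest member, Ints5, and of genes listed at 0.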
